A study of Mus musculus with 6 samples.

Results

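The beta-defensin genes were taken as every gene in the deposited count table whose symbol is Defb followed by digits alone, with pseudogenes left out. This gave 42 of 43432 gene IDs, all annotated as protein-coding. The counts come from RNA sequencing of medullary thymic epithelial cells (mTEC) taken from C57BL/6 mice at 4 weeks after birth. The control genotype, Copa+/+ (WT), had 3 libraries, and the heterozygous genotype CopaE241K/+ (MUT), which carries 1 allele with the E241K change in the COPI coat subunit encoded by Copa, also had 3. The labels do not say whether a library came from 1 mouse or a pool, so p-values here speak of the spread among the 6 libraries, which may be partly technical.

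Beta-defensins are small cationic peptides that kill microbes and are held in shape by paired cysteines. Epithelia of skin, airway, gut and kidney secrete some of them, many others are known from the epididymis and testis, and some attract leukocytes through the chemokine receptor CCR6. mTEC transcribe genes that otherwise belong to particular peripheral tissues, each cell only a few of them, and present the products to developing T cells. The transcription factors Aire and Fezf2 are needed for much of this display.

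The coding sequences below are those of the 5 members with counts in all 6 libraries, and of Defb8, which lacks 1 of the canonical cysteines. They are given 5′ to 3′ from GENCODE M21 (GRCm38), and the capitals mark in-frame cysteine codons.
Defb3: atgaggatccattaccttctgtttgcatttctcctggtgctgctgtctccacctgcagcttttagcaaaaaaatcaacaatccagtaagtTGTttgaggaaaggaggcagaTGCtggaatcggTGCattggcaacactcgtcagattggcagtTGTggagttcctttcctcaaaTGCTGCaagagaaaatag
Defb6: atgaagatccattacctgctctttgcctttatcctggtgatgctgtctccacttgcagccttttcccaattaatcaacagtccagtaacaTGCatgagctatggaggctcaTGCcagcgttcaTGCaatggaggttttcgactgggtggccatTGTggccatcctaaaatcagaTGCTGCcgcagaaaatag
Defb8: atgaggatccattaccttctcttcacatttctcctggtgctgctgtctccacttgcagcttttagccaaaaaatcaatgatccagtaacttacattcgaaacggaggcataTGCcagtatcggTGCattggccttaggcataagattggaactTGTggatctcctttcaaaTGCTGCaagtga
Defb1: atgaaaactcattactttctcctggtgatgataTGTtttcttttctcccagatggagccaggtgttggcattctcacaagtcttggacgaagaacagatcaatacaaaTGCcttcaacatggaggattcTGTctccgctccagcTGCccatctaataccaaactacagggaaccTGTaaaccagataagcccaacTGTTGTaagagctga
Defb19: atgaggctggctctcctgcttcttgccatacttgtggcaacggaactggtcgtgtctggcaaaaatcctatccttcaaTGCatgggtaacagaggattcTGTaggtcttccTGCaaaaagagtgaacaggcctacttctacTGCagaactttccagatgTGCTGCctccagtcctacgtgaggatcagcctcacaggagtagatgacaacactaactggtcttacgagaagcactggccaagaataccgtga
Defb42: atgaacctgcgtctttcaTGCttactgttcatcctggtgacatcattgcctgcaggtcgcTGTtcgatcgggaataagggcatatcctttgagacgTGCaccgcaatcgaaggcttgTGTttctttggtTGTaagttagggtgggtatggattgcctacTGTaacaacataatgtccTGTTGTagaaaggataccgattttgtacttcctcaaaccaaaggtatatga
In Defb3 and Defb6 the 6 cysteine codons are separated by 6, 3, 9, 6 and 0 other codons. In 37 of 42 members a run of 6 cysteine codons had gaps of 5 to 7, 3 to 4, 9, 4 to 6 and 0 codons. Defb8, also known as Defr1, has 5 cysteine codons, and its sequence was identical to that of Defb3 in 79.2% of 192 aligned positions. Defb22, Defb46, Defb33 and Defb50 also lacked the spacing. The coding sequences ran from 57 to 186 codons before the stop, with a median of 72. In the promoter table from RefSeq (GRCm38.p6), 29 members had an entry. The 250 bases upstream of their starts had a median GC content of 47.6% and a median of 1 CpG, against 52.4% and 6 over all promoters. The motif TATAAA, searched on both strands at any position, was in 5 of 30 member promoters (16.7%) and in 12.4% of all 32851 promoters. Variants of this exact sequence were not searched for, so a promoter without it may still hold a related element. Counted from the RefSeq start, it lay at -30 in Defb48, -35 in Defb15 and -221 in Defb23. In Defb7 and Defb30 it was on the opposite strand, at -113 and -222. The RefSeq start of Defb30 lies inside its GENCODE gene body.

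Most of the family was detected somewhere in the 6 libraries, in sets that differed between libraries but overlapped. At least 1 count was found for 34 of 42 members (81.0%), beside 66.4% of all genes in the table and 88% of protein-coding genes. Any WT library had a count for 27 members, and any MUT library for 30. WT libraries 1, 2 and 3 held 9, 16 and 22 detected members, and MUT libraries 1, 2 and 3 held 13, 18 and 26. The genotypes overlapped, at 15.7 ± 6.51 members in WT and 19.0 ± 6.56 in MUT (mean ± SD, n = 3 each). Same-numbered WT and MUT libraries also share the ending of their source name, whose meaning the labels do not give. Within each of these 3 pairs the MUT library held more members, 13 against 9, 18 against 16 and 26 against 22, and also more detected genes of any kind. The 8 members without a count in any library were Defb18, Defb41, Defb38, Defb39, Defb12, Defb10, Defb9 and Defb43. A count of 0 allows up to 3 counts in a library, or 0.128 to 0.150 CPM (counts scaled to the library total), and this floor covers counting error only.

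**Figure D1:**
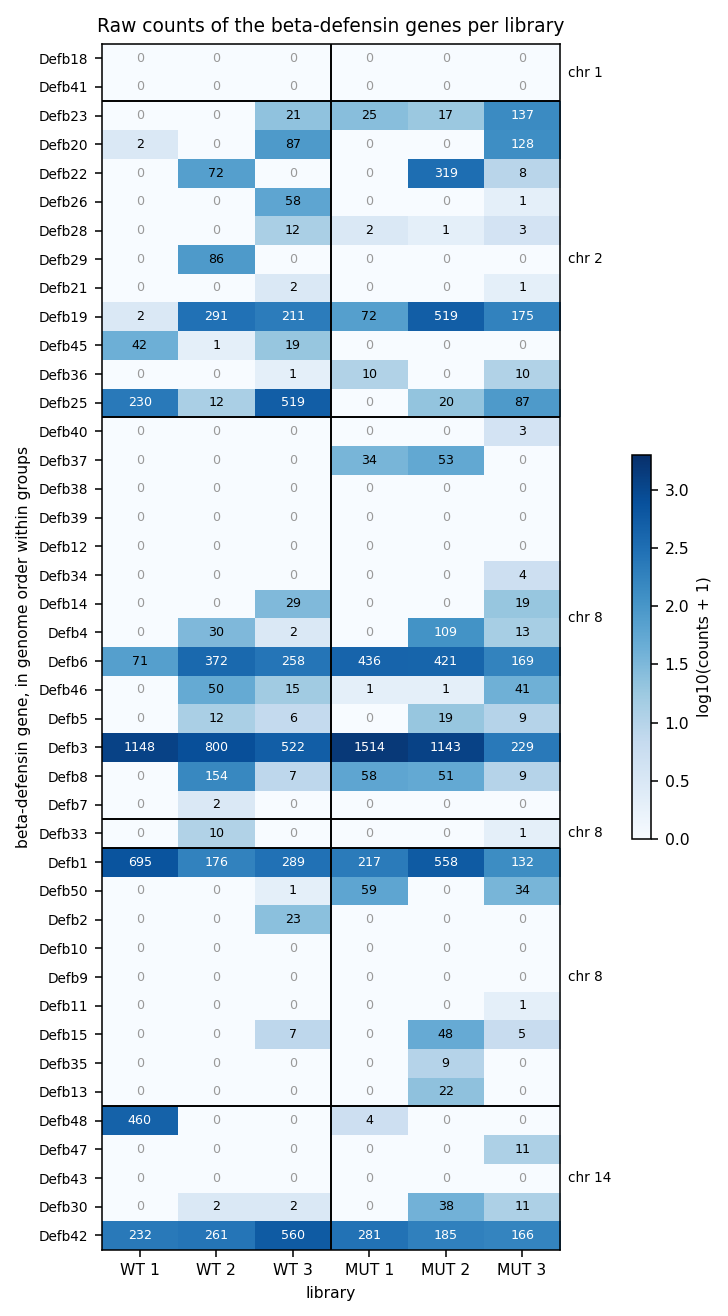
Raw counts of the 42 beta-defensin genes (rows, in genome order within groups separated by lines, with the chromosome at the right) in the 3 WT and 3 MUT libraries (columns), with colour giving log10(counts + 1). Only 5 rows (Defb19, Defb6, Defb3, Defb1 and Defb42) are filled in all 6 libraries, 8 rows are empty, and the other 29 are filled in 1 to 5.

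The number of detected members followed the number of detected genes of any kind. Genes with a count numbered 17174, 19558 and 21755 in the WT libraries and 19329, 20188 and 24774 in the MUT libraries, and the libraries fall in the same order by this number and by their number of beta-defensin genes. Library totals were close, at 19934513 to 23366238 counts. Thinned to the smallest total, the libraries still held on average 9, 15.9 and 22 members in WT and 12.9, 17.7 and 25.2 in MUT, in the same order. The share of members detected, 21.4% to 61.9% per library, lay below that of all protein-coding genes in every library, which ran from 66.2% to 83.5%. Over all genes in the table the share was 39.5% to 57%, and the members lay above it in WT library 3 and MUT library 3.

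**Figure D2:**
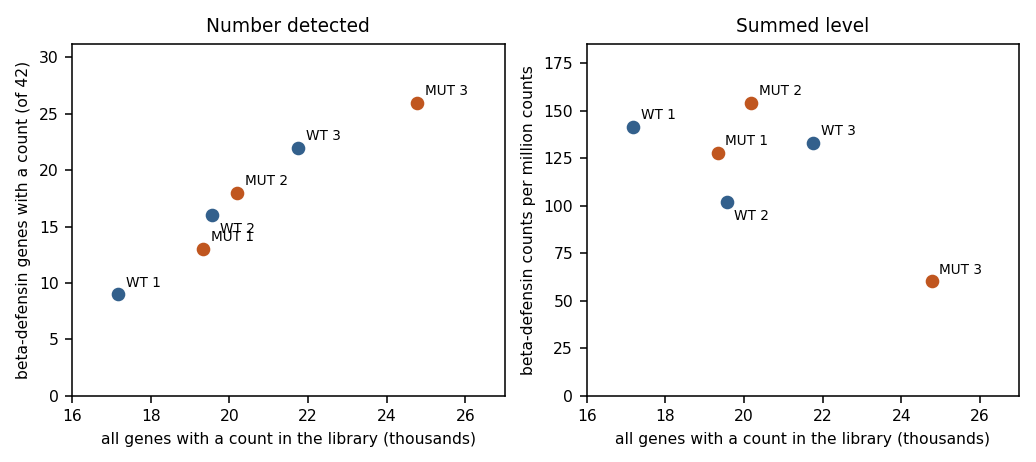
Number of beta-defensin genes with a count (left) and their summed CPM on library totals (right) against the number of all genes with a count, 1 point per library, with WT in blue and MUT in orange. Detected members run from 9 in WT library 1 to 26 in MUT library 3, which also has the lowest sum, 60.2 CPM.

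Detection was uneven across libraries for most members. Of the 34 detected members, 9 had counts in 1 library, 6 in 2, 6 in 3, 5 in 4, 3 in 5 and 5 in all 6. The share detected in all 6 libraries was 14.7% of the detected members, against 47.5% of all detected genes and 67.0% of detected protein-coding genes. Among genes of like abundance the gap was smaller. With 100 to under 1000 counts summed over the libraries, 8 members were detected in a median of 4 libraries and none in all 6. The 4874 protein-coding genes of that abundance were detected in a median of 5, and 1952 of them in all 6. With 1000 counts or more, 5 of 5 members and 96.8% of protein-coding genes were in all 6. With 10 to 99 counts, 15 members were detected in a median of 2 libraries and none in all 6. Protein-coding genes of that abundance had a median of 3, with 2.26% in all 6. With 1 to 9 counts, the median was 1 for the 6 members and for protein-coding genes, and none of either was in all 6.

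The counts that a member had where it was on were often well above 1 read. The 29 members found in 1 to 5 libraries had 74 library values above 0, with a median of 12.5 counts. Of these values, 45 were at least 10 counts, 8 were at least 100, and 17 were 1 or 2 counts. There were 23 members with at least 10 counts in 1 library and 0 in another, among them 7 with at least 100 counts in 1 library and 0 in another. The same counts were not made over all genes, so they do not show a trait particular to the family. The libraries were made by cDNA amplification without molecular identifiers in the protocol, so a count is a read and not a molecule.

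Of the 15 pairs of libraries, the 2 that shared the largest part of their members were WT and MUT libraries 3 and WT and MUT libraries 2. WT and MUT library 3 had 20 members in common, which is 90.9% of the 22 in WT and 76.9% of the 26 in MUT, and 71.4% of the 28 found in either. The pairs numbered 2 and 1 shared 54.5% and 37.5% of the members in either, and the other 12 pairs shared 25.0% to 53.8%. Over all genes, pairs shared 64.2% to 77.3%, and WT and MUT libraries 3 were again the highest pair.

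The members lie in 6 groups in the genome (GRCm38) when neighbours up to 500000 bases apart are joined. The chromosome 2 group (152459055 to 152623053), whose genes are known mainly from the male reproductive tract, had 11 of 11 members detected, with 4, 5 and 9 of them in WT libraries 1, 2 and 3 and again 4, 5 and 9 in MUT. On chromosome 8 the group from 18974940 to 19497775, which holds Defb3, Defb4 and Defb6, had 11 of 14 members detected. The group from 21776599 to 21948850, which holds Defb1, had 7 of 9, and Defb33 stood alone between them and was detected. On chromosome 14 (62977524 to 63058149) 4 of 5 members were detected, and on chromosome 1 neither of the 2 was. Every detected group thus had both broadly detected members and members found in few libraries, apart from the lone Defb33.

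In level, a few members made up most of the family. Summed over all members, levels in CPM, from here on with TMM-scaled library sizes unless stated, were 165.6, 109.8 and 116.7 in the WT libraries and 128.0, 169.2 and 50.8 in the MUT libraries, or 130.7 ± 30.4 in WT and 116.0 ± 60.1 in MUT (mean ± SD, n = 3 each). The genotypes overlapped. The 5 most abundant members of a library held 62.3% to 95.9% of its beta-defensin counts. Defb3 led in 5 libraries, with 16.3% to 55.8% of the family's counts, and Defb42 led in WT library 3 with 21.1%. MUT library 3 had the most members detected and the lowest family sum.

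Defb3 (ENSMUSG00000039775, chromosome 8, 19293360 to 19295291, plus strand), an inducible antimicrobial peptide of airway and other mucosae, had 66.0, 37.7 and 23.0 CPM in the WT libraries and 71.4, 54.8 and 8.27 in the MUT libraries. MUT libraries 1 and 3 were thus the highest and the lowest of all 6. Its log2 fold change, MUT minus WT, was 0.09 (SE 0.75, edgeR quasi-likelihood test, adjusted p = 0.99988), and it turned to -0.21 when WT library 3 was left out, -0.42 when MUT library 1 was and -0.08 when MUT library 2 was.

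Defb1 (ENSMUSG00000044748, chromosome 8, 21776599 to 21795185, plus strand), the constitutive epithelial beta-defensin of kidney and airway, had 39.9, 8.29 and 12.7 CPM in WT and 10.2, 26.7 and 4.77 in MUT. WT library 1 was the highest, and the other values of the genotypes interleaved. The log2 fold change was -0.55 (SE 0.97) and turned to 0.40 without WT replicate 1.

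Defb6 (ENSMUSG00000050756, chromosome 8, 19225478 to 19228209, plus strand), a beta-defensin described in muscle and upper gut epithelium, had 4.08, 17.5 and 11.4 CPM in WT and 20.6, 20.2 and 6.11 in MUT. The lowest value was WT library 1, with MUT library 3 next, and the log2 fold change was 0.51 (SE 1.00). The coding sequences of Defb6 and Defb4 were identical in 78.6% of aligned positions, yet Defb6 and Defb3 shared no 50-base stretch with any other transcript of the annotation.

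Defb42 (ENSMUSG00000054763, chromosome 14, 63046991 to 63058149, plus strand), known from the epididymis, had 13.3, 12.3 and 24.6 CPM in WT and 13.3, 8.86 and 6.00 in MUT. It had the narrowest range of the 14 members given singly here, 4.11-fold from the lowest to the highest library, and the log2 fold change was -0.84 (SE 0.94). Its gene body overlaps that of Defb30 on the opposite strand, and the strand setting of the counting is not given in the sources used here.

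Defb19 (ENSMUSG00000050645, chromosome 2, 152576086 to 152580312, minus strand), known from testis, was the fifth member found in every library. It had 0.115, 13.7 and 9.29 CPM in WT and 3.40, 24.9 and 6.32 in MUT, and WT library 1 held only 2 counts of it. The range was 216-fold, and the log2 fold change was 0.58 (SE 1.44), or -0.67 without MUT replicate 2.

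Per kilobase of exon, the scale on which genes can be compared, the level averaged over 6 libraries was highest for Defb3, at 158 ± 90.6 CPM per kb (mean ± SD, n = 6). Defb6 followed at 41.2 ± 22.3, then Defb19 at 24.4 ± 22.4, Defb25 at 23.2 ± 31.7, Defb1 at 19.6 ± 15.5, Defb48 at 9.97 ± 24.2, Defb8 at 7.59 ± 9.58 and Defb42 at 5.39 ± 2.62. Defb3 stood above Defb6 by more than 1 SD of either, and no later neighbours in this order were separated by more than their spread.

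**Figure D3:**
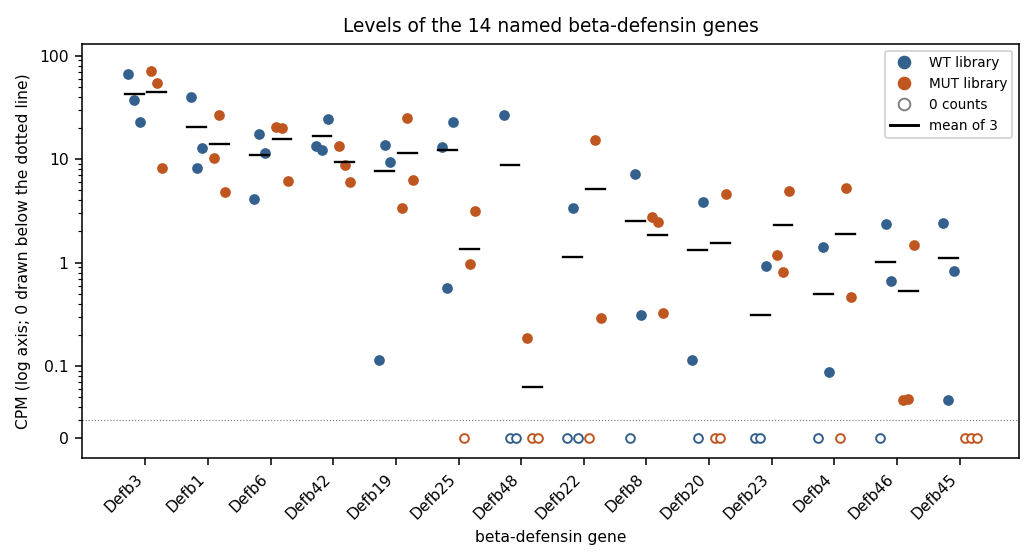
CPM (log axis) of the 14 beta-defensin genes given singly, ordered by their mean, with 1 point per library (WT blue, MUT orange), open points below the dotted line for 0 counts and bars for the mean of 3 libraries. Defb3 runs from 8.27 to 71.4 CPM with no library at 0, whereas Defb48 reaches 26.4 CPM in WT library 1 and is at 0 in 4 libraries.

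The remaining members given singly were off in at least 1 library. Defb25 (chromosome 2, 152622356 to 152623053) had 230, 12 and 519 counts in the WT libraries and 0, 20 and 87 in the MUT libraries. It had the lowest unadjusted p of the tested members, 0.12, with a log2 fold change of -3.15 (SE 1.89) and an edgeR adjusted p of 0.99988, and WT library 2 lay inside the MUT range.

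Defb8 (chromosome 8, 19445769 to 19447606), the gene with 5 cysteine codons, had 0, 154 and 7 counts in WT and 58, 51 and 9 in MUT. WT library 2 held most of the WT counts, and without that replicate the log2 fold change of -0.46 (SE 2.18) turned to 3.50. Defb4 (chromosome 8, 19198706 to 19201545), an inducible peptide of airway and oesophagus, had 0, 30 and 2 counts in WT and 0, 109 and 13 in MUT, with a log2 fold change of 1.91 (SE 2.49) that was -1.08 without MUT replicate 2. Defb4 and Defb8 share 23 stretches of 50 bases, 5.68% of those of Defb4 and 9.66% of those of Defb8, so reads there could have been split between them.

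Defb46 (chromosome 8, 19239916 to 19242143) had 0, 50 and 15 counts in WT and 1, 1 and 41 in MUT. Defb23 (chromosome 2, 152459055 to 152464620) had 0, 0 and 21 counts in WT and 25, 17 and 137 in MUT, where 2 MUT libraries and WT library 3 were close and MUT library 3 was high. The log2 fold change of Defb46 was -0.92 (SE 2.30), or 0.63 without WT replicate 2 and -4.24 without MUT replicate 3. That of Defb23 was 2.88 (SE 2.4), or 8.65 without WT replicate 3, which leaves WT at 0, and 1.66 without MUT replicate 3. With the replicate number as a block it was 5.01 in edgeR and 5.33 in DESeq2.

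The last 4 had too few filled libraries for the test. Defb48 (chromosome 14, 62977524 to 62984510) had 460 counts in WT library 1, 4 in MUT library 1 and 0 elsewhere, so 99.1% of its counts came from 1 library. Defb22 (chromosome 2, 152485663 to 152490138), a sperm-coating protein of the epididymis, had 72 counts in WT library 2, 319 in MUT library 2, 8 in MUT library 3 and 0 elsewhere. Defb20 (chromosome 2, 152477063 to 152479934) had 2 counts in WT library 1, 87 in WT library 3, 128 in MUT library 3 and 0 elsewhere. For Defb48, Defb22 and Defb20 the highest WT and the highest MUT library carried the same replicate number. Of the tested members this also held for Defb3, Defb4, Defb19, Defb23 and Defb25, and not for Defb1, Defb6, Defb8, Defb42 and Defb46.

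Defb45 (ENSMUSG00000062124, chromosome 2, 152593191 to 152599399) was the only member with counts in all 3 libraries of 1 genotype and none in the other. It had 42, 1 and 19 counts in WT and 0, 0 and 0 in MUT, so WT library 2 was at the edge of detection. Over all genes with a count, 23 of 28820 (0.0798%) had this pattern, and the opposite pattern, on in MUT alone, was met by 0 members and by 163 genes (0.566%). With the counts of each genotype pooled, and a floor of 3 counts over the MUT group, the lower bound on the fold was 22.1. Without WT replicate 1 it was 10.5. These bounds cover counting error only and not the spread between libraries, so they are no estimate of a genotype difference. It was below the filter of the main test. DESeq2 gave it an unadjusted p of 0.0103 and an adjusted p of 0.310, and edgeR without a filter gave 0.0420 and 0.683, so it did not pass in either.

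The other 20 detected members had low totals, from 1 to 94 counts over the 6 libraries, and each was found in 1 to 4 libraries. Their highest level was 4.05 CPM, for Defb29 with 86 counts in WT library 2 and none elsewhere, a gene named here after its values were seen. At least 10 counts in some library were reached by 14 of the 20. Of Defb15's 50-base stretches, 37.2% are also in the overlapping gene Gm36879, so its counts are uncertain. By genotype, 23 of the 34 detected members were found in both, which is 67.6%. The same share was 79% of all detected genes and 92.0% of detected protein-coding genes. Defb29, Defb45, Defb7 and Defb2 were found in WT libraries alone, and Defb40, Defb37, Defb34, Defb11, Defb35, Defb13 and Defb47 in MUT libraries alone. All of these except Defb45 and Defb37 had counts in 1 library only, which places them in 1 genotype of necessity. For Defb40, Defb34, Defb11 and Defb47 it was MUT library 3, which had the most detected genes. Defb7, Defb40 and Defb11 had no more than 3 counts. The MUT-alone share of 20.6% sits beside 15.5% for all genes and 6.04% for protein-coding genes, and the WT-alone share of 11.8% beside 5.51% and 1.99%.

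No member passed the threshold for a genotype difference in any test that was run. Of the 42 members, 10 passed the filter on low counts, and 0 of them had an adjusted p under 0.05 in edgeR's quasi-likelihood test, as was so for 0 of 17172 genes (0%). Without adjustment, 597 genes and 0 members had a p under 0.05. DESeq2 called 0.629% of genes and edgeR without a filter 0.253%, with 0 members in each. None of the 10 had non-overlapping genotypes, a pattern met by 5.39% of tested genes with MUT higher and by 3.96% with MUT lower. Log2 fold changes were above 0 for 5 members and below 0 for 5, with a median of -0.19 against -0.01 for all tested genes. That median ran from -0.54 to 0.64 with 1 library left out. Their standard errors had a median of 1.66, from 0.75 to 2.49, against a median of 1.03 over all tested genes, so these libraries could not resolve changes of a few-fold in most members.

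**Figure D4:**
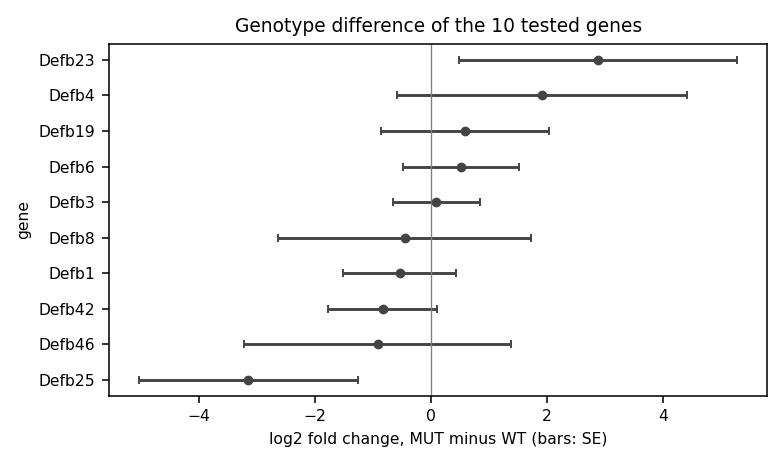
Log2 fold changes, MUT minus WT, of the 10 beta-defensin genes that passed the filter on low counts (points, with bars for the SE derived from the edgeR test). They run from -3.15 for Defb25 to 2.88 for Defb23, 5 on each side of 0, and none passed the test.

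Genes of the pathways around the family also gave no call in edgeR. Of 13 genes that induce beta-defensins or carry the signal, all 13 were tested, 6 above 0 and 7 below, with a median log2 fold change of -0.05 that turned to 0.17 without WT replicate 2. Nod2, an intracellular sensor of bacterial peptidoglycan, had the smallest p of that list, with 2169, 143 and 421 counts in WT, 464, 108 and 234 in MUT and a log2 fold change of -2.08 (SE 1.02). Of 7 tested receptor and chemokine genes, 3 were above 0 and 4 below, with a median of -0.32 that was 0.06 without WT replicate 1, and the chemokine receptor Ccr6 had the smallest p, with a log2 fold change of 1.62 (SE 1.18).

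Other antimicrobial genes of epithelia numbered 21 tested, 6 above 0 and 15 below, with a median of -0.38. S100a8, S100a9, Camp and Ltf of this list are also neutrophil markers below. Lyz2 is also in the marker list of dendritic cells and macrophages. The part of leukocytes in this median was not tested. The median was 0.05 when WT library 2 was left out, -0.03 when MUT library 3 was and -0.84 when MUT library 2 was. Reg3b, a lectin that kills gut bacteria, had 858, 3696 and 1015 counts in WT and 690, 442 and 179 in MUT. All 3 MUT libraries were below all 3 WT libraries for it, with a log2 fold change of -2.15 (SE 0.74), an unadjusted p of 0.0130 and an edgeR adjusted p of 0.99988. Of 20 epididymis antigens, 18 were detected and 10 tested, 3 above 0 and 7 below, with a median of -1.26. The median was -0.03 without WT replicate 2, -0.33 without WT replicate 3 and -0.46 without WT replicate 1. It also depended on which antigens passed the filter. With the detected antigens that the filter had left out, it was -0.54 in edgeR without a filter and -0.63 in DESeq2. Lcn12, an epididymal lipocalin, had 647, 25 and 79 counts in WT and 0, 2 and 32 in MUT. WT library 2 and MUT library 3 were nearly level, and the log2 fold change was -5.03 (SE 2.05, edgeR adjusted p = 0.99988).

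The alpha-defensins, the Paneth cell family of the same peptide class, were detected more sparsely than the beta-defensins in the deposited counts. Sequence stretches shared between alpha-defensin genes were not examined, so reads could have been lost or split between them. The part of this in the difference was not tested. Counts were found for 9 of 22 alpha-defensin genes, with 1 to 5 per library and 0.0491 to 4.46 CPM on library totals in sum, against 60.2 to 154.4 for the beta-defensins. Only 2 passed the filter, and Defa24 had the smaller p, with a log2 fold change of 2.30 (SE 2.4). Among 8 regulators of antigen display, none was called, 3 were above 0 and 5 below, with a median of -0.23, or 0.12 without WT replicate 1. Aire had 1230 ± 240 CPM in WT and 1300 ± 332 in MUT, and Fezf2 had 685 ± 184 and 516 ± 124 (mean ± SD, n = 3 each), both differences within the spread between libraries.

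Cell type markers were compared as summed CPM, and in bulk samples fewer cells of a type and less RNA per cell cannot be told apart. Of 9 mTEC markers, 8 were above 0 in all libraries and Ccl21a was at 0 in at least 1, and their sum was 30250 to 42070 CPM in WT and 21410 to 33630 in MUT. It was highest in WT library 1 and lowest in MUT library 3, which also had the lowest beta-defensin sum. MUT library 2, with the highest beta-defensin sum, had the next lowest mTEC marker sum, 28440 CPM. Cornified epithelium markers summed to 254.8 to 554.6 CPM in WT and 301.3 to 445.5 in MUT, with 8 of 9 above 0 in all libraries and Flg at 0 in at least 1. Neutrophil markers, all 5 above 0, summed to 121.8 to 377.6 CPM in WT and 124.2 to 528.5 in MUT. Thymocyte markers, also all 5 above 0, summed to 207.3 to 353.0 CPM in WT and 120.5 to 850.9 in MUT. MUT library 2 was highest for both lists and had the highest beta-defensin sum, 169.2 CPM. WT library 1 was close in beta-defensin sum, at 165.6 CPM, but had the lowest neutrophil sum, 121.8 CPM. Its thymocyte sum was 285.8 CPM. Of the 10 marker lists, the tuft cell list alone had non-overlapping genotypes, at 282.7 to 622.3 CPM in WT and 160.1 to 238.6 in MUT, with all 4 markers above 0 in every library. The part of these cells in the beta-defensin levels was not tested.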

How the data were processed

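The authors deposited raw read counts per Ensembl gene ID for 6 libraries, with no normalization. Per the labels' protocols, RNA was amplified by the Nugen Ovation method and made into Nextera XT libraries. STAR 2.4.2a, DESeq2 1.26.0 and the build GRCm38 are named, with no role, in the submitters' processing notes. Which program counted reads, on which annotation and with which strand setting, is not given in the sources used here. Every sample column was used and every row had a gene ID, of which 42462 matched a symbol.

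MUT was compared with WT over all genes with the robust quasi-likelihood test of edgeR 4.0.16 in R 4.3.3, after filterByExpr and TMM scaling, with Benjamini-Hochberg adjustment at 0.05, and 17172 genes were tested. Standard errors (SE) were derived from the edgeR result, as the absolute log2 fold change divided by the square root of the F statistic. The script was tested on simulated data. CPM values use TMM-scaled totals of the tested genes. A member was detected with at least 1 count. Coding sequences were aligned globally with Biopython 1.88. No 2 libraries were identical: chi-square over degrees of freedom was at least 90.8 for every pair.

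Members given singly were those that passed the filter, those detected in all 6 libraries, those on in 1 genotype and off in the other, and the 12 with the highest CPM in a library. Of each context list the gene with the smallest p was named, with Aire and Fezf2. The members and lists were chosen with earlier results of these data known. Alternatives were other normalizations, filters, thresholds and detection limits, DESeq2 1.42.0, limma-voom (limma 3.58.1), the replicate number as a block and each library left out. The lower bound for Defb45 without WT replicate 1 was added after seeing the data.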

Additional observations from a re-analysis of the deposited data

How the results depend on the processing

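In the count of genes called, 0 in edgeR, 4 alternatives differed: 73 genes were called without a filter, 116 by DESeq2, 1 with the replicate block in edgeR and 308 with the replicate block in DESeq2, where 1 antimicrobial gene was among them. No member was called under any of the 14 alternatives, but many members could not have been. The main filter left 10 members to test. DESeq2 gave no p for Defb20, Defb22, Defb29, Defb48 and Defb8, and no adjusted p for others such as Defb5, Defb14 and Defb28. Same-numbered libraries had correlated deviations of 0.0939, 0.0798 and 0.101, the highest of each library. They share the ending of their source name, but the labels do not say what it marks, so the numbers were not taken as pairs. Of 128 alternative log2 fold changes of the 10 members, 112 kept their direction and 16 did not, and the cause was not tested. Defb3 gave -0.36 in limma-voom, -0.26 with the replicate block in edgeR, -0.27 with the block in DESeq2, and -0.42 to 0.58 with 1 library left out. Defb8 gave 1.55, 0.90 and 0.91 in the same fits and -1.03 to 3.50 with 1 left out, and Defb46 gave 0.0298 with the block in DESeq2 and -4.24 to 0.63 with 1 left out. The ranges with 1 library left out were -0.67 to 1.28 for Defb19, -1.08 to 5.21 for Defb4 and -1.44 to 0.40 for Defb1. Defb23 kept its direction, at 1.66 to 8.65. The median over tested members, -0.19, ran from -0.54 to 0.64 with 1 left out. Members detected numbered 31 at 3 counts or more and 28 at 10 or more, and 30 to 34 with 1 library left out. The lower bound for Defb45 fell from 22.1 to 10.5 without WT replicate 1. The medians of the context lists moved with 1 library left out, to between -0.84 and 0.05 for antimicrobial genes, -1.17 and -0.03 for epididymis antigens, -0.75 and 0.06 for receptors, -0.33 and 0.17 for inducers and -0.27 and 0.12 for the antigen display regulators. The inducers' median also turned in limma-voom (0.06) and with the block (0.14 in edgeR, 0.12 in DESeq2). With 3 libraries a genotype and standard errors above 1 for most members, only large changes could have been called.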
